A study of Homo sapiens with 18 samples.

Results

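SMARCA4-mAID IMR-32 cells given auxin were compared with the same engineered cells given ethanol, to ask how newly made messenger RNA changes when SMARCA4 is targeted for degradation. IMR-32 is an established human neuroblastoma cell line, and in this line SMARCA4 carries a mini auxin-inducible degron (mAID). The comparison is between all 4 libraries whose labels give the SMARCA4-mAID genotype, among 18 libraries in the series. Of these 4, 2 had 500 uM auxin (indole-3-acetic acid) and 2 had ethanol as its solvent. Cells of every group used here received 500 uM of the nucleoside 4-thiouridine (4sU) for 2 h before harvest. For comparison, 4 libraries of parental IMR-32 cells of wild-type genotype were used. Of these, 2 had 1 uM BRM014, an inhibitor of the SMARCA4 and SMARCA2 ATPases, and 2 had DMSO. The spread between libraries was estimated in the main fit from all 16 labelled libraries of the series. These also include the lines KELLY and SK-N-DZ with 1 uM BRM014 or DMSO. The sources used here do not give the length of the auxin exposure, the end of SMARCA4 that carries the tag, the source of the plant receptor TIR1 or whether the engineered line is a single clone. No library of untagged cells with auxin was analysed here, so a response to loss of SMARCA4 and a response to auxin itself cannot be told apart within these 4 libraries.

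SMARCA4, also called BRG1, is an ATPase of the SWI/SNF (BAF) complexes, which slide and evict nucleosomes and so open regulatory DNA. SMARCA2 is its paralogue and the alternative ATPase of the complex. In a degron line, auxin bridges the tag to an E3 ubiquitin ligase, and the tagged protein is destroyed while its gene and mRNA remain. Neuroblastoma arises from the sympathetic nervous lineage, and its adrenergic state is maintained by transcription factors such as HAND2, GATA3 and ISL1. 4sU enters RNA made during the labelling period, and its chemical modification makes conversions in the sequenced cDNA that mark new transcripts.

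The deposited values are raw counts of conversion-bearing reads per gene, as the file names describe them. The ethanol libraries held 1505905 and 1638317 gene counts and the auxin libraries 1376718 and 1612020, and 14572 to 14654 genes had a count in each. Labelled libraries of the whole series held 724913 to 1740475, and the 2 unlabelled KELLY libraries held 4432 and 5395. Levels are given in CPM, the count scaled to a library total of 1000000, with library totals adjusted by trimmed mean of M-values (TMM) factors. A gene was called when the quasi-likelihood test of edgeR gave a Benjamini-Hochberg adjusted p below 0.05, and log2 fold changes are auxin minus ethanol with the standard error (SE) of the fit. Whether both libraries of a group were grown as separate cultures is not stated in the labels, and p-values therefore reflect only library-to-library spread, possibly technical. A change shared by every gene would not appear in these relative values, and fewer cells of one type and less RNA per cell cannot be told apart in bulk samples.

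SMARCA4 transcripts did not check the degradation, since the degron acts on the protein. The level of SMARCA4 was 752 and 867 CPM with ethanol and 663 and 607 with auxin, a log2 change of -0.35 ± 0.12 (SE, adjusted p = 0.109). Parental IMR-32 cells in DMSO had 90.4 and 107 CPM, and the engineered line in ethanol held more new SMARCA4 RNA than that (log2 difference 3.04, adjusted p = 3.01e-33). The paralogue SMARCA2 was low, with 13, 26, 17 and 5 counts in ethanol replicates 1 and 2 and auxin replicates 1 and 2 (adjusted p = 0.846). The 27 adrenergic regulators summed to 14105 to 16234 CPM before TMM scaling, against 1276 to 1500 for 25 mesenchymal regulators, 219 to 246 for 12 fibroblast markers and at most 10.99 for 12 haematopoietic markers. Without MYCN, which is amplified in this line, the adrenergic sum was 8489 to 9649 CPM. Of the defining genes of noradrenaline synthesis, TH (tyrosine hydroxylase) and DBH (dopamine beta-hydroxylase) had 0 counts in all 4 libraries, as did the vesicle genes SLC18A1 and CYB561. Other genes of noradrenergic function had counts, such as SLC18A2 (182 over the 4 libraries) and DDC (53). The adrenergic regulator TFAP2B was at 0. So were 6 of 14 Schwann lineage genes (S100B and CDH19 among them), 4 of 12 fibroblast markers (COL3A1) and 7 of 25 mesenchymal regulators (PRRX1). Other mesenchymal regulators had counts over the 4 libraries, such as TEAD1 (2521), ZEB1 (2286), TWIST1 (1328) and SNAI2 (708). The fibroblast marker PDGFRA had 1156.

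Auxin changed the new RNA of a limited set of genes. Of 12853 genes tested, 281 were called (2.19%), with 132 higher (1.03%) and 149 lower (1.16%). At an unadjusted p below 0.05 there were 1512. The change exceeded 1 on the log2 scale in 122 called genes, 52 of them higher and 70 lower, and the median log2 change was 0.84 among the higher genes and -0.96 among the lower ones. Both auxin libraries lay above both ethanol libraries in 131 of the 132 higher genes and below them in 149 of 149 lower genes. Over all genes tested, 21.7% had both auxin libraries above and 20.5% had both below, so the ordering alone is common. The median log2 change of all genes tested was 0, and 219 genes in the test had no count in any of the 4 libraries.

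**Figure D1:**
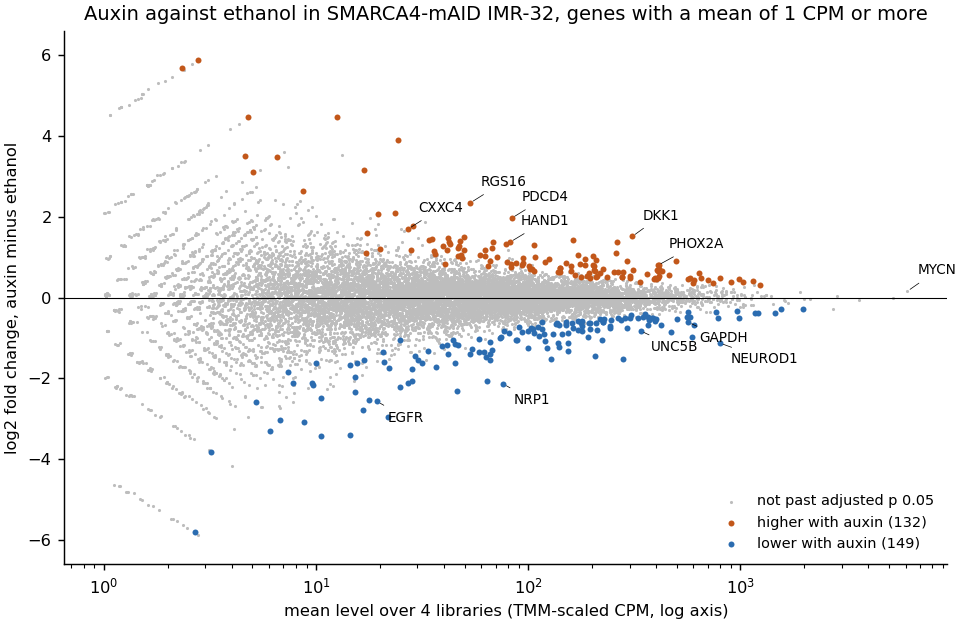
Log2 fold change (auxin minus ethanol) of each gene with a mean of 1 CPM or more, against its mean level over the 4 SMARCA4-mAID libraries on a log axis. Orange points are the 132 genes called higher, blue points the 149 called lower and grey points the genes not called. MYCN lies far to the right near 0, and called genes with small changes have high levels.

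Transcript composition differed between the called groups. The median GC content of GENCODE transcripts was 44.8% for the higher genes, 54.1% for the lower genes and 49.0% for all genes tested that had a value. The median share of T, the base at which 4sU is read in cDNA, was 26.5%, 22.2% and 24.4%. With offsets for GC content and length in the model, 264 genes were called and 226 of them were among the 281. The part of T content in the calls was not tested.

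Among the 15 leading genes that rose with auxin, the largest change was in RGS16, which shortens G-protein signalling as a GTPase-activating protein. Its level was 19.3 and 15.7 CPM with ethanol and 77.0 and 100.5 with auxin, a log2 change of 2.34 ± 0.30 (adjusted p = 2.48e-08). The smallest standard error among the 15 was that of DKK1, a secreted antagonist of Wnt signalling that binds the LRP co-receptors. DKK1 had 158 and 162 CPM with ethanol and 413 and 502 with auxin, which is 2.86-fold higher (log2 change 1.51 ± 0.12, adjusted p = 1.56e-17). PDCD4, an inhibitor of translation that binds the helicase eIF4A, went from 37.2 and 30.8 CPM to 127 and 138 (log2 change 1.97 ± 0.23, adjusted p = 1.01e-09). ARHGAP29, a GTPase-activating protein, went from 94.4 and 81.8 CPM to 248 and 228 (log2 change 1.43 ± 0.19). HAND1, a transcription factor of the sympathetic lineage, went from 43.4 and 47.8 CPM to 115 and 122 (log2 change 1.37 ± 0.19). In each of these 5 genes the auxin libraries lay well clear of the ethanol libraries, and the call held when any of the 4 libraries was left out.

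The other 10 leading genes that rose each lost their call without at least 1 of the 4 libraries. PMP22, a myelin membrane protein, had 12 and 15 counts with ethanol and 54 and 56 with auxin (log2 change 2.10 ± 0.54). Its groups were well apart, yet the call was lost without any 1 of the 4 libraries (adjusted p = 0.0684 to 0.138). UTRN, the dystrophin relative utrophin, rose by 1.78, and CXXC4, an inhibitor of Wnt signalling that binds Dishevelled, by 1.70 on the log2 scale. UTRN was lost without ethanol replicate 1 (adjusted p = 0.0526), CXXC4 without auxin replicate 2 (0.139) and ZC3H6, a zinc finger gene with a log2 change of 1.41, without ethanol replicate 1 (0.213). SNAP25, a SNARE protein of synaptic vesicle fusion, had 31.0 and 44.02 CPM with ethanol and 116 and 81.1 with auxin (log2 change 1.38 ± 0.27). It was lost without ethanol replicate 1 (adjusted p = 0.0659) or auxin replicate 1 (0.0752), and SRGAP1, a GTPase regulator of the Slit and Robo pathway (log2 change 1.43), without the same libraries (0.145 and 0.0811). SYT17, a synaptotagmin, had 22.0 CPM in both ethanol libraries and 61.3 and 62.5 in the auxin libraries. It was nonetheless lost without any 1 library (adjusted p = 0.0549 to 0.112). The chemokine gene CXCL12 and LDLRAD4, a membrane inhibitor of TGF-beta signalling, rose by 1.51 and 1.45. Both were lost without ethanol replicate 1 (adjusted p = 0.0761 and 0.173), ethanol replicate 2 (0.127 and 0.101) or auxin replicate 2 (0.143 and 0.319), and METTL7A (log2 change 1.38) without ethanol replicate 2 (0.295) or auxin replicate 2 (0.312). The log2 change stayed above 0 in every one of these fits.

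**Figure D2:**
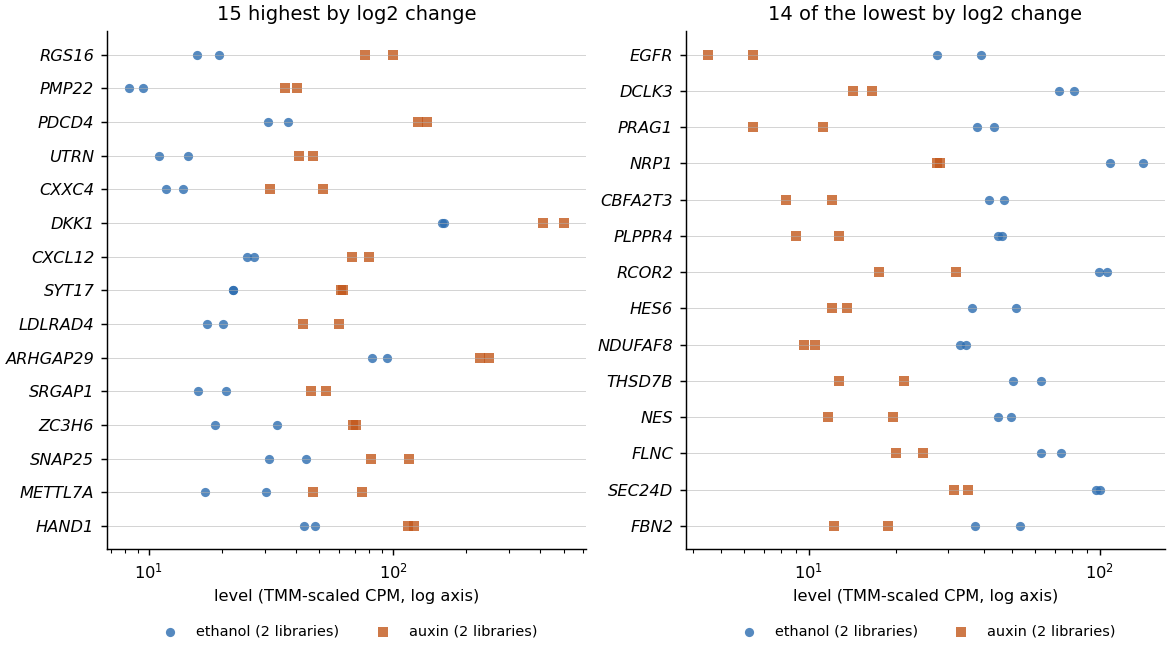
Level of the 15 highest called genes and 14 of the 15 lowest in each SMARCA4-mAID library (TMM-scaled CPM, log axes). Circles are the 2 ethanol libraries and squares the 2 auxin libraries. In each gene the squares lie entirely to one side of the circles, as the choice of these genes required.

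The leading genes that fell included the receptors NRP1 and EGFR, the corepressor genes RCOR2 and CBFA2T3 and the nestin gene NES. NRP1, a co-receptor for class 3 semaphorins and VEGF, had 141 and 108 CPM with ethanol and 27.7 and 28.3 with auxin. That is 4.42-fold lower (log2 change -2.14 ± 0.21, adjusted p = 9.16e-13). DCLK3, a kinase of the doublecortin-like family, went from 81.3 and 72.3 CPM to 16.4 and 14.2 (log2 change -2.32 ± 0.41). RCOR2, a CoREST corepressor subunit, went from 99.2 and 106 CPM to 32.1 and 17.4, and PLPPR4, a neuronal phospholipid phosphatase-related membrane protein, from 46.2 and 44.7 to 12.7 and 9.01. FLNC, the actin crosslinker filamin C, fell by 1.61 and SEC24D, a cargo adaptor of COPII vesicles, by 1.56 on the log2 scale. The calls of these 6 genes held when any of the 4 libraries was left out.

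EGFR, the receptor for epidermal growth factor, had 40 and 62 counts with ethanol and 6 and 10 with auxin (log2 change -2.58 ± 0.57). Its call was lost without ethanol replicate 2 (adjusted p = 0.0905) or auxin replicate 1 (0.0875). Nestin (NES), an intermediate filament of neural progenitors, had 44.8 and 49.7 CPM with ethanol and 19.4 and 11.6 with auxin. NES and PRAG1, a pseudokinase with a log2 change of -2.21, were lost without auxin replicate 2 (adjusted p = 0.138 and 0.101). HES6, a neurogenic relative of the Hes repressors, had 51.7 and 36.5 CPM with ethanol and 11.96 and 13.5 with auxin. It was lost without ethanol replicate 1 (adjusted p = 0.120), auxin replicate 1 (0.0778) or auxin replicate 2 (0.0562), and THSD7B (log2 change -1.71) without ethanol replicate 1 (0.0678) or auxin replicate 1 (0.137). Further genes of the 15 were the corepressor CBFA2T3, with a log2 change of -2.12, the complex I assembly factor NDUFAF8, with -1.74, and fibrillin-2 (FBN2), with -1.55. Their calls were lost without any 1 library, at an adjusted p of 0.104 to 0.291, 0.126 to 0.267 and 0.0526 to 0.386. NDUFAF8 was also lost with the offsets for GC content and length.

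RefSeq promoters of GRCh38.p14, from 250 bases before to 50 bases after 1 annotated start per gene, matched 12 of the 15 highest and 10 of the 15 lowest genes. The 3 leading genes RGS16, DKK1 and PMP22, which rose, and HES6, which fell, are printed because they include both CpG-rich starts and, in PMP22, a CpG-poor one. RGS16 lies at chr1:182604340-182604639 on the minus strand, DKK1 at chr10:52314031-52314330 on the plus strand, PMP22 at chr17:15265277-15265576 on the minus strand and HES6 at chr2:238239989-238240288 on the minus strand. Capitals mark 4 short motifs on either strand, and in these sequences no marked match overlaps another. The GC box bound by SP1-like factors was taken as GGGCGG. The motif of the factor NF-Y was taken as CCAAT, the TATA box of the core promoter as TATAAA and the E-box of helix-loop-helix factors as CAGCTG.
RGS16: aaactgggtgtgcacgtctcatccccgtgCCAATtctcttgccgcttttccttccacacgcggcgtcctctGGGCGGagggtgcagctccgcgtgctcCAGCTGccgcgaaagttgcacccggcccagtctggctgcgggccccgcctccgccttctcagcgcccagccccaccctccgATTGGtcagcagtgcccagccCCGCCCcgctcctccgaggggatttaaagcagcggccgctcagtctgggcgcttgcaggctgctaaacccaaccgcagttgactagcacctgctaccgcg
DKK1: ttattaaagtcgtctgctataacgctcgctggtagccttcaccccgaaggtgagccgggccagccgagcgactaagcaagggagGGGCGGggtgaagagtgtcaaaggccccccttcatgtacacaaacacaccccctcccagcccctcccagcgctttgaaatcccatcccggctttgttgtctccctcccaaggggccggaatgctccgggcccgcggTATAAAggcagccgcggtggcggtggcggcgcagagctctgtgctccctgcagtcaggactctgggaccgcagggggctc
PMP22: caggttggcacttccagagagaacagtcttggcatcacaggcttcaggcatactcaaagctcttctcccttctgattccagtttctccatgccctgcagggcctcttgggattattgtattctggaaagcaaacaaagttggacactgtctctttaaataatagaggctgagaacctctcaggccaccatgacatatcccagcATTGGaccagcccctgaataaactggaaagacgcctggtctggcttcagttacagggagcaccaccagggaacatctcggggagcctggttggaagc
HES6: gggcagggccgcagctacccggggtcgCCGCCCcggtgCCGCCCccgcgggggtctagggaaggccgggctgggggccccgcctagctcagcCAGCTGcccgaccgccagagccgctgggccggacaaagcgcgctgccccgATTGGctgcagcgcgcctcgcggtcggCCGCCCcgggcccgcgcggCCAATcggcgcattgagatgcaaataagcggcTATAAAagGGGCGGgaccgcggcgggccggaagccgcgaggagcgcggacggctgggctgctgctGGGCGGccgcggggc

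The DKK1 window held 1 GC box and 1 TATA box, RGS16 2 GC boxes, 2 CCAAT boxes and 1 E-box, and HES6 5 GC boxes, 2 CCAAT boxes, 1 E-box and 1 TATA box. The PMP22 window held 1 CCAAT box and no GC box, with a GC content of 50.7% and an observed to expected CpG ratio of 0.104, against 0.799 for RGS16, 0.659 for DKK1 and 0.948 for HES6. No test was made of the shares of promoters with a motif. A GC box was in 71.0% of the 107 promoters of higher genes, 71.2% of the 104 of lower genes and 70.1% of the 9826 of all genes tested, against 44.6% of all 27305 RefSeq promoters. It was in 11 of the 12 promoters of the highest genes (91.7%) and 9 of the 10 of the lowest (90.0%), whose median CpG ratios were 0.784 and 0.85 against 0.847 for all genes tested. A CCAAT box was in 42.1%, 40.4%, 37.0% and 35.7% of the same sets. The TATA box was in 6.54%, 4.81%, 5.29% and 11.95%, and the E-box in 14.02%, 18.3%, 16.4% and 17.7%. AP-1 sites (TGANTCA), E-boxes of the form CACGTG and cyclic AMP response elements (TGACGTCA), sought on both strands, were in none of the 4 windows printed. They were in 4.04%, 10.36% and 3.49% of the promoters of all genes tested and in 7.76%, 7.435% and 1.98% of all RefSeq promoters. Promoters of higher genes held them in 4.67%, 7.48% and 1.87% of cases, and those of lower genes in 4.81%, 5.77% and 0.962%. A match of letters is a description of the window and not a measured binding site.

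Transcription factors of the sympathetic lineage moved in both directions. Of 27 adrenergic regulators tested, 5 rose (18.5%), namely PHOX2A, HAND1, SIX3, KLF7 and MEIS2. The 4 that fell (14.8%) included DACH1 and INSM1, and the median log2 change of the list was 0.15. Over all genes tested, 1.03% were called higher and 1.16% lower. The share of each list below stands against these values, and no test was made of a list against them. KLF7, MEIS2, DACH1 and INSM1 were singled out after their values were seen. PHOX2A, a homeodomain factor of noradrenergic neurons, had 324 and 272 CPM with ethanol and 499 and 534 with auxin (log2 change 0.80 ± 0.11, adjusted p = 3.38e-07). The groups did not overlap, and the call held in all 13 alternatives. SIX3, a homeobox factor, rose from 142 and 124 CPM to 249 and 294 (log2 change 1.03 ± 0.16) and also held in all of them.

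DACH1, a nuclear transcriptional regulator, had 234 and 202 CPM with ethanol and 120 and 128 with auxin (log2 change -0.81 ± 0.17, adjusted p = 0.00124). The call was lost without ethanol replicate 1 (adjusted p = 0.0815). INSM1, a zinc finger factor of neuroendocrine cells, had 481 and 468 CPM with ethanol and 318 and 338 with auxin. The INSM1 call was lost without any 1 library (adjusted p = 0.0548 to 0.146) and with offsets for GC content and length. KLF7 (log2 change 0.32) was lost without ethanol replicate 1, ethanol replicate 2 or auxin replicate 2 (adjusted p = 0.161, 0.472 and 0.633), and MEIS2 (1.10) without ethanol replicate 2 or auxin replicate 2 (0.683 and 0.450). The KLF7 call was also lost with DESeq2 size factors in edgeR, no low-count filter or offsets for GC content and length. The MEIS2 call was also lost with those offsets without a replicate block, and with the 4 engineered-line libraries alone. The core factors HAND2, GATA3, ISL1 and TBX2 were not called, with log2 changes of 0.26, -0.32, 0.25 and -0.16 (adjusted p = 0.191, 0.0739, 0.438 and 0.683). HAND2 was called higher without auxin replicate 1 (adjusted p = 0.0279) and with offsets for GC content and length, without or with a replicate block (0.0357 and 0.0202). GATA3 was called lower without auxin replicate 2 (0.00489), with no low-count filter (0.0312) and with a replicate block over 16 libraries (0.0417). MYCN, the amplified oncogene of this line, had 5866 and 5701 CPM with ethanol and 6014 and 6836 with auxin (log2 change 0.15 ± 0.06, adjusted p = 0.255).

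The basic helix-loop-helix factor NEUROD1, which drives neuronal differentiation, fell from 1071 and 1121 CPM to 484 and 518. The decrease (log2 change -1.13 ± 0.11, adjusted p = 9.16e-13) held in all 13 alternatives. In a list of proneural and Hand genes added after the data were seen, 10 were tested. Of these, 1 gene (HAND1) rose (10%) and 2 fell (20%), NEUROD1 among them. Among 14 mesenchymal regulators tested, 1 rose and 1 fell (7.14% each). TEAD1, the DNA-binding partner of YAP, rose from 348 and 313 CPM to 508 and 540 (log2 change 0.67 ± 0.11). ZEB1, a repressor of epithelial genes, fell from 469 and 432 to 304 and 330 (log2 change -0.51 ± 0.13). ZEB1 was lost without ethanol replicate 1 (adjusted p = 0.145) or auxin replicate 1 (0.154). Of 23 genes of noradrenergic function, 0 were called by edgeR over all labelled libraries and 0 by DESeq2, 1 or 2 were lower in some alternatives, 3 had an unadjusted p below 0.05, and the median log2 change was 0. The noradrenaline transporter SLC6A2 came nearest, at 220 and 240 CPM with ethanol and 177 and 145 with auxin (adjusted p = 0.0526). It was called lower in 6 of 13 alternatives: with DESeq2 size factors in edgeR (adjusted p = 0.0460), no low-count filter (0.0188), a replicate block over 16 libraries (0.0230), the 4 engineered-line libraries alone without or with a block (0.0184 and 0.0337) or without auxin replicate 1 (0.0309).

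**Figure D3:**
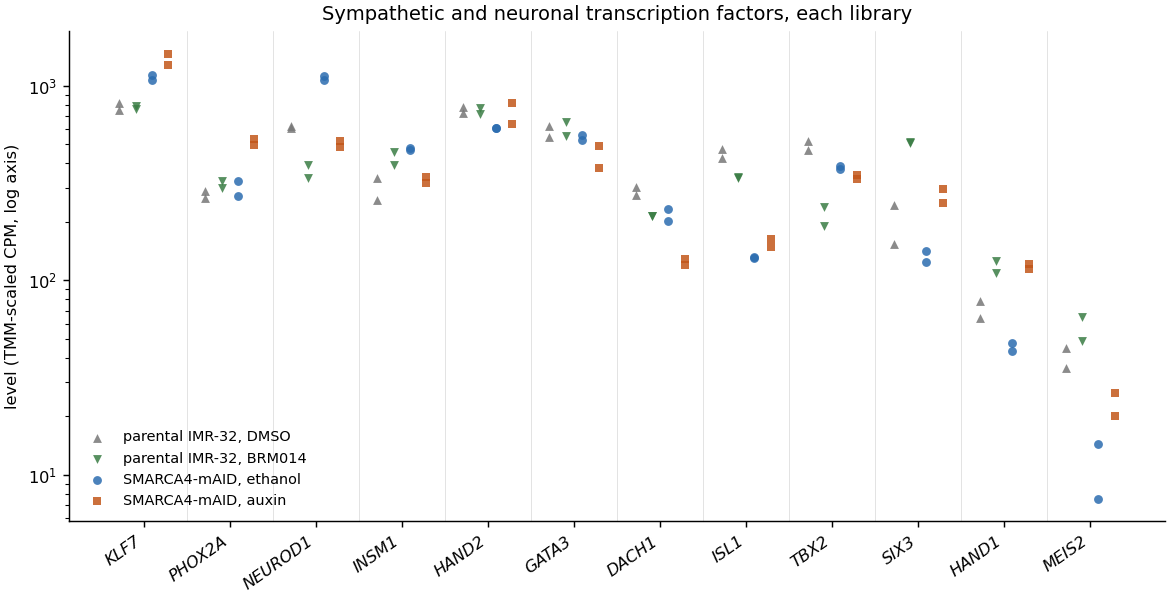
Level of 12 transcription factors in each library (TMM-scaled CPM, log axis), for parental IMR-32 in DMSO or BRM014 and for the SMARCA4-mAID line in ethanol or auxin, 2 libraries each. PHOX2A lies higher and NEUROD1 lower with auxin than with ethanol, while the PHOX2A levels of parental libraries with BRM014 and DMSO lie close together.

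Among receptors and guidance genes, 6 genes fell and 1 rose. Of 43 axon guidance genes tested, CNTN1 rose (2.33%) and NRP1, UNC5B, EFNB2 and PLXNA2 fell (9.3%). CNTN1, a neuronal adhesion molecule, went from 45.5 and 44.7 CPM to 104 and 121 (log2 change 1.32 ± 0.18, adjusted p = 1.19e-07). UNC5B, a netrin receptor, went from 418 and 446 CPM to 249 and 239 (log2 change -0.83 ± 0.13, adjusted p = 3.99e-06). EFNB2, the ligand ephrin-B2, had 31 and 41 counts with ethanol and 12 and 10 with auxin, and PLXNA2, a semaphorin receptor singled out after its values were seen, had a log2 change of -1.35. EFNB2 was lost without ethanol replicate 2, auxin replicate 1 or auxin replicate 2 (adjusted p = 0.196, 0.0659 and 0.283) and PLXNA2 without ethanol replicate 1 or auxin replicate 1 (0.582 and 0.569). The calls of EFNB2 and PLXNA2 were also lost with the 4 engineered-line libraries alone, without or with a replicate block. The list median was 0. Of 23 receptor tyrosine kinase and neurotrophin genes, 2 fell (8.7%), EGFR among them, and none rose, with a median of -0.20.

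Genes of neuronal channels and vesicles were called in 1 direction only. Of 34 tested, 4 rose (11.8%), among them SNAP25, the synapsin SYN2 and the calcium channel subunit CACNA2D1, while the median of the list was -0.23. SYN2 went from 243 and 234 CPM to 376 and 386 (log2 change 0.68 ± 0.14, adjusted p = 0.000583) and held when any library was left out. CACNA2D1 went from 349 and 325 CPM to 488 and 439. Its call was lost without ethanol replicate 1 (adjusted p = 0.0706), ethanol replicate 2 (0.272) or auxin replicate 1 (0.263). The CACNA2D1 call was also lost with offsets for GC content and length. Among 19 cadherins and protocadherins, PCDH19 (log2 change -2.13) and DCHS1 (-0.57) fell, which is 10.5% of the list. PCDH19 was lost without ethanol replicate 1 or auxin replicate 2 (adjusted p = 0.0713 and 0.144) and DCHS1 without any 1 library (0.122 to 0.268). PCDH19 was also lost with the 4 engineered-line libraries alone, without or with a replicate block, and DCHS1 with offsets for GC content and length. Of 28 extracellular matrix genes, FBN2 and VCAN, the proteoglycan versican, fell (7.14%). The list had the lowest median of the lists with 7 or more genes tested, -0.31. VCAN (log2 change -0.61) was lost without ethanol replicate 1, auxin replicate 1 or auxin replicate 2 (adjusted p = 0.345, 0.0661 and 0.362).

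Secreted and membrane regulators of developmental signalling were called in both directions. In the Wnt pathway the ligand antagonist DKK1 rose among 24 tested (4.17%). SFRP1, a secreted Wnt-binding protein, and KREMEN1, a DKK1 receptor, fell (8.33%). SFRP1 went from 120 and 119 CPM to 51.6 and 62.5 (log2 change -1.06 ± 0.22, adjusted p = 0.000732), and KREMEN1 from 282 and 252 to 159 and 148 (log2 change -0.80 ± 0.19). KREMEN1 was lost without ethanol replicate 1, auxin replicate 1 or auxin replicate 2 (adjusted p = 0.151, 0.0549 and 0.138). In the BMP and TGF-beta pathways 25 genes were tested. The pseudoreceptor BAMBI and the inhibitory helix-loop-helix protein ID4 rose (8%) and the type I receptor TGFBR1 fell (4%). BAMBI had 156 CPM in both ethanol libraries and 255 and 247 with auxin, and lost its call without any 1 library (adjusted p = 0.0616 to 0.0915). ID4 (log2 change 1.15) was lost without ethanol replicate 2 or auxin replicate 1 (adjusted p = 0.307 and 0.141), and TGFBR1 (-0.51) without ethanol replicate 1, auxin replicate 1 or auxin replicate 2 (0.462, 0.0593 and 0.174). In the Notch pathway HES6 and LFNG, a glycosyltransferase that modifies Notch, fell among 13 tested (15.4%). LFNG had 40 and 37 counts with ethanol and 10 and 4 with auxin, and its call was lost without ethanol replicate 1 or auxin replicate 2 (adjusted p = 0.0624 and 0.278), as that of HES6 was without either of them (0.120 and 0.0562).

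In the insulin-like growth factor list, IGFBP5 and the glycoprotein hormone gene STC1 fell among 16 tested (12.5%). STC1 went from 318 and 284 CPM to 104 and 115 (log2 change -1.45 ± 0.20, adjusted p = 5.31e-08), and IGFBP5, which binds the growth factors outside the cell, from 249 and 194 to 71.8 and 103 (log2 change -1.33 ± 0.21). Both calls held in all 13 alternatives. Among 15 feedback genes of the ERK pathway, 1 rose and 1 fell (6.67% each). The transcription factor ETV5 rose from 84.0 and 85.5 CPM to 166 and 164 (log2 change 0.96 ± 0.18). Cyclin D1 (CCND1) fell from 2172 and 2158 CPM to 1725 and 1810. The CCND1 decrease was small (log2 change -0.29 ± 0.08), and its call was lost without any 1 library (adjusted p = 0.0539 to 0.239). The CCND1 call was also lost with offsets for GC content and length. Of 12 RGS genes, a list added after the data were seen, RGS16 and RGS4 rose (16.7%) and none fell. The placental growth factor gene PGF had 105 and 134 counts with ethanol and 77 and 32 with auxin (log2 change -1.03). Its call was lost by DESeq2 and with offsets for GC content and length without a replicate block. It was lost without ethanol replicate 2 or auxin replicate 2 (adjusted p = 0.208 and 0.736).

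Of 30 DNA replication and E2F target genes, UHRF1, CCNE2 and MCM7 fell (10%) and 25 had a negative log2 change, with a median of -0.26. UHRF1, which recruits the maintenance DNA methyltransferase, went from 247 and 211 CPM to 123 and 135 (log2 change -0.83 ± 0.17, adjusted p = 0.000732). Its call was lost without ethanol replicate 1 (adjusted p = 0.0637), that of cyclin E2 (CCNE2, log2 change -0.87) without any 1 library (0.0640 to 0.236) and that of the helicase subunit MCM7 (-0.53) without ethanol replicate 2 or auxin replicate 2 (0.488 and 0.453). Leaving out 1 library left 1 or 2 of the 30 called. The MCM7 call was also lost with offsets for GC content and length without a replicate block. Of 30 G2/M genes 0 were called by edgeR or DESeq2 and 2 had an unadjusted p below 0.05, with a median of -0.01. In the p53 list CDKN1A and PMAIP1 fell among 23 tested (8.7%). CDKN1A, the cyclin-dependent kinase inhibitor p21, had 43 and 34 counts with ethanol and 3 and 22 with auxin, so the size of its decrease rests on auxin replicate 1. It was lost without ethanol replicate 1 or auxin replicate 1 (adjusted p = 0.206 and 0.579), by DESeq2 and with the 4 engineered-line libraries alone, and PMAIP1 (log2 change -0.58) without any 1 library (0.0951 to 0.320). CCNE2 shares its span with INTS8 and NDUFAF6, so its reads could have been assigned to either gene.

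Glycolysis genes, in a list added after the data were seen, fell in 3 of 21 cases (14.3%) and rose in none. The median log2 change was -0.23. Hexokinase 2 (HK2), which phosphorylates glucose, went from 544 and 496 CPM to 301 and 349 (log2 change -0.67 ± 0.13, adjusted p = 0.000271). GAPDH went from 610 and 763 CPM to 452 and 447, and pyruvate kinase (PKM) from 619 and 687 to 484 and 446. HK2 held when any library was left out, GAPDH was lost without ethanol replicate 2 (adjusted p = 0.0574) and PKM without ethanol replicate 2 or auxin replicate 2 (0.141 and 0.103). Calls by edgeR and by DESeq2 were 0 among 59 ribosomal protein genes, although 46 had a negative log2 change (median -0.16) and 11 an unadjusted p below 0.05. With the 4 engineered-line libraries alone edgeR called 3 of them lower, and 0 once a replicate block was added. Calls by both tools were also 0 among 30 nucleolar MYC targets, 16 immediate early genes, 23 cholesterol synthesis genes and 10 HOX genes, of which 2, 3, 1 and 0 had an unadjusted p below 0.05. The immediate early gene NR4A2, a nuclear receptor, had 21 counts in both ethanol libraries and 49 and 102 with auxin (log2 change 1.88 ± 0.59, adjusted p = 0.0703). It was called higher with no low-count filter (adjusted p = 0.0486) and with the 4 engineered-line libraries without or with a block (0.000373 and 0.00125). In the ATF4 and unfolded protein list PSAT1, an enzyme of serine synthesis, rose (log2 change 0.61, 3.85% of the list). Among 16 heat shock genes HSPA8, the constitutive HSP70 chaperone, fell (log2 change -0.39, 6.25% of the list). With offsets for GC content and length the PSAT1 call was lost. PSAT1 was lost without any 1 library (adjusted p = 0.0982 to 0.233) and HSPA8 without auxin replicate 1 (0.0549).

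Genes of chromatin complexes were called in small numbers. Of 30 BAF subunit genes tested, BICRAL and BCL11A rose (6.67%) and ACTB fell (3.33%), with a median of -0.03. BICRAL, a subunit of the non-canonical BAF complex, had 59.9 and 34.6 CPM with ethanol and 95.7 and 93.4 with auxin (log2 change 1.01 ± 0.22, adjusted p = 0.00175). It was lost without ethanol replicate 2 (adjusted p = 0.353). BCL11A (log2 change 0.51) was lost without any 1 library (adjusted p = 0.0581 to 0.691), and the actin gene ACTB (-0.28) without ethanol replicate 1, ethanol replicate 2 or auxin replicate 1 (0.321, 0.0998 and 0.638). The BCL11A call held in 3 of 13 alternatives. The ACTB call was also lost by DESeq2, with abundance offsets and with offsets for GC content and length. Of 29 Polycomb genes 1 was called, which is 3.45% of the list. It was CBX2, which reads histone H3 methylation in the repressive complex. CBX2 fell from 467 and 481 CPM to 317 and 314 (log2 change -0.59 ± 0.12, adjusted p = 0.000732) and held in all 13 alternatives. NRIP1, a nuclear receptor corepressor, was the 1 gene called in the list of 12 retinoic acid response genes (8.33%). It fell from 802 and 691 CPM to 456 and 468 (log2 change -0.69 ± 0.11) and held likewise. IFI44 fell among 7 interferon-stimulated genes (log2 change -1.06, 14.3% of the list). Its call was lost without any 1 library (log2 change -1.20 to -0.90) and with no low-count filter.

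Auxin as used here is an indole, and some indoles are known ligands of the aryl hydrocarbon receptor, so its target genes were examined. Of 5 targets tested 0 were called by edgeR or DESeq2, and 2 had an unadjusted p below 0.05. The median log2 change of the list was 0.50, with 3 genes above 0 and 2 below. CYP1A1, which was listed but did not pass the count filter, had 2 and 5 counts with ethanol and 0 in both auxin libraries. NQO1 had 8 and 33 counts with ethanol and 19 and 12 with auxin, TIPARP 114 in both ethanol libraries and 140 and 167, and CYP1B1 15 and 17 and then 22 and 24. AHRR, the receptor's feedback repressor, had 6 and 0 counts with ethanol and 28 and 43 with auxin (adjusted p = 0.0579). It had 0 counts in both parental BRM014 libraries, which held only 741970 and 775064 gene counts. AHRR was called higher in 7 of the 12 alternatives that gave it a value: without ethanol replicate 1 (adjusted p = 0.0346), with no low-count filter (0.0154), with a replicate block over 16 libraries (0.0438), with the 4 engineered-line libraries without or with a block (0.000811 and 0.00362) and with offsets for GC content and length without or with a block (0.0397 and 0.0272). The part of this receptor in the other changes was not tested. The Schwann lineage markers also lay higher with auxin, with a summed level of 20.6 and 18.3 CPM with ethanol and 55.9 and 52.7 with auxin. Of 14 listed, 6 had 0 counts in all 4 libraries and 3 were tested, of which PMP22 was the 1 called. The glial regulator SOX10 had 0, 0, 2 and 1 counts in ethanol replicates 1 and 2 and auxin replicates 1 and 2, and the neural POU factor POU3F1 had 0, 0, 7 and 8.

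**Figure D4:**
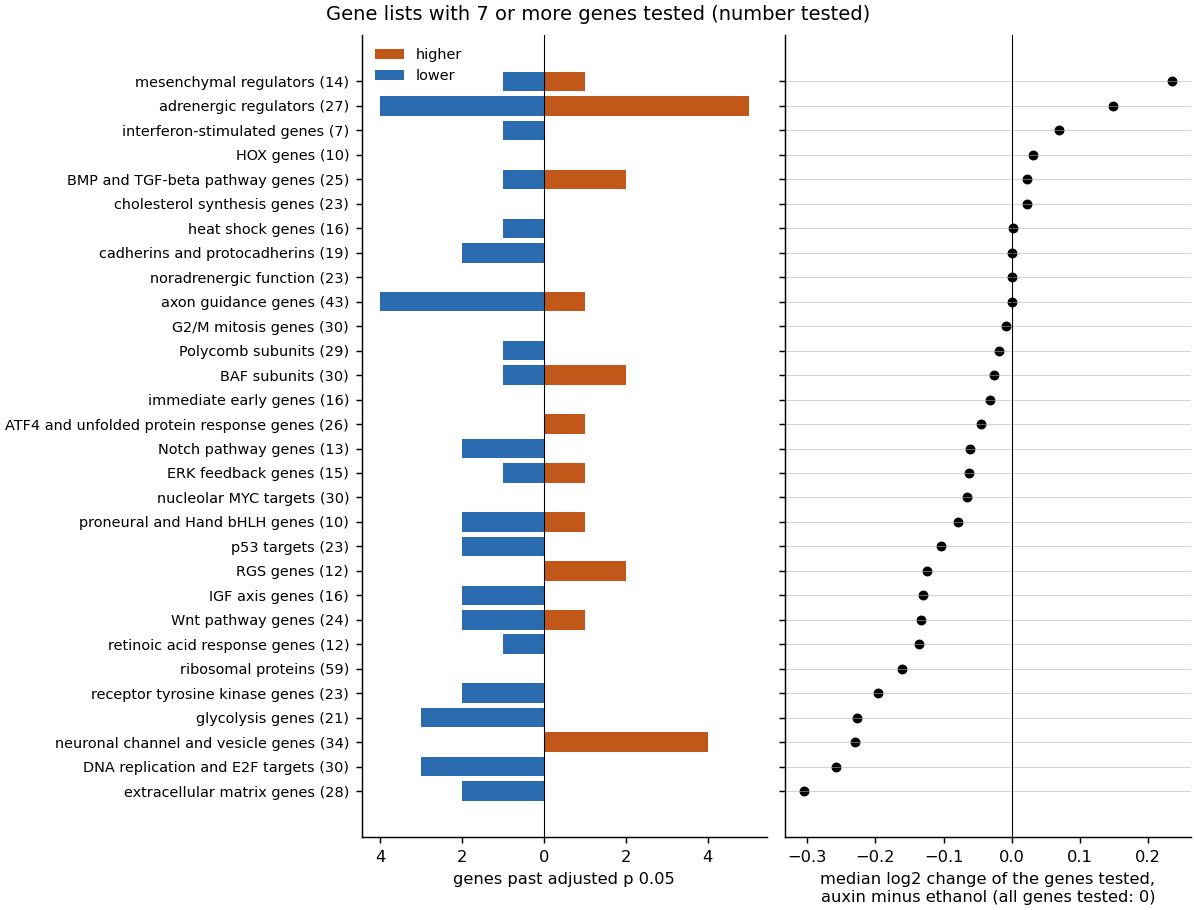
Genes past the adjusted p of 0.05 in each list with 7 or more genes tested (left; higher to the right, lower to the left) and the median log2 change, auxin minus ethanol, of the genes tested in it (right). The adrenergic regulators hold the most calls, 5 higher and 4 lower, and list medians lie between -0.31 and 0.24.

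The auxin response was set beside that of parental IMR-32 cells to BRM014, which shares no control library with it. The 2 comparisons differ in cell line, solvent and the presence of the tag, so the agents cannot be told apart from these. BRM014 called 1650 genes (12.8%), 805 higher (6.26%) and 845 lower (6.57%). Of the 132 genes higher with auxin, 88 were also higher with BRM014, which is 66.7% of the auxin list and 10.9% of the BRM014 list. Of the 149 genes lower with auxin, 83 were also lower with BRM014, which is 55.7% and 9.82%. The BRM014 log2 change had the sign of the auxin change in 254 of the 281 genes (90.4%), and the same share over all genes tested is not given here. Its median was 0.82 over the genes that rose with auxin and -0.82 over those that fell, and its size was larger than that with auxin in 133 genes and smaller in 148. The 281 genes were chosen by their auxin change, which favours larger values with auxin. The split therefore cannot say which response was larger. PDCD4 (log2 change 1.97 with auxin and 2.05 with BRM014), NRP1 (-2.14 and -2.65), RCOR2 (-2.06 and -2.48) and CBX2 (-0.59 and -1.13) were called in both.

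The difference between both effects, BRM014 minus auxin, was called in 250 genes (1.95%), of which 53 were also called with auxin. Of these 53, the effects had the same sign and were larger with BRM014 in 30, the same sign and larger with auxin in 5, and opposite signs in 18. DKK1 was among those larger with BRM014, which took it from 387 and 357 CPM to 1734 and 1786 (log2 change 2.24, adjusted p of the difference 0.00391). ID4 had a log2 change of 2.74 with BRM014 and 1.15 with auxin (0.0140), and GAPDH -1.25 and -0.61 (0.0186). The 6 genes with the smallest p of the difference were RGS4, SOX4, CCND1, KIF21A, FAM84A and MAB21L1. SOX4, a transcription factor of neural progenitors, had log2 changes of 1.56 with BRM014 and 0.29 with auxin, and it was not called with auxin (adjusted p = 0.122), except higher with offsets for GC content and length, without or with a replicate block (0.0291 and 0.0204). CCND1 had -1.18 and -0.29, the kinesin KIF21A 0.96 and -0.12, and FAM84A 0.78 and -0.05. The angiogenic and growth factor modulators IGFBP4 and PGF fell by 4.44 and 2.77 with BRM014 and had log2 changes of -0.88 and -1.03 with auxin (adjusted p of the difference 0.000513 and 0.0158).

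**Figure D5:**
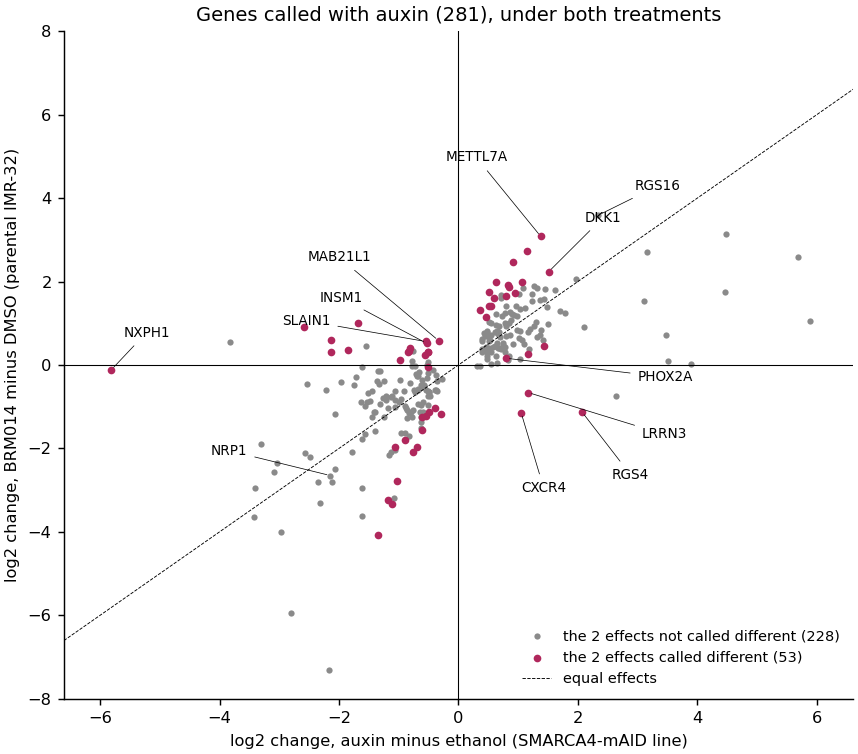
Log2 change with auxin (horizontal) and with BRM014 (vertical) for the 281 genes called with auxin. Red points are the 53 genes whose effects were called different, grey points the other 228, and the dashed line marks equal effects. RGS4, CXCR4 and LRRN3 lie at the lower right and INSM1, MAB21L1 and SLAIN1 at the upper left.

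The 5 genes with the same sign and a larger effect with auxin included PHOX2A, ARHGAP29, TBX3 and NXPH1, the last 2 singled out after their values were seen. PHOX2A had a BRM014 log2 change of 0.16 against 0.80 with auxin (adjusted p of the difference 0.0267). ARHGAP29 had 0.46 with BRM014 against 1.43 with auxin (adjusted p of the difference 0.0354). TBX3, a T-box factor, rose with auxin from 22.7 and 11.9 CPM to 36.6 and 40.6, while its parental levels were 164 and 156 in DMSO. Its call was lost without ethanol replicate 2 (adjusted p = 0.215) and with the 4 engineered-line libraries alone. NXPH1, a secreted neurexin ligand, had 12 and 4 counts with ethanol and 0 in both auxin libraries. Its call was lost without ethanol replicate 1, auxin replicate 1 or auxin replicate 2 (adjusted p = 0.222, 0.0811 and 0.134).

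In 6 genes both treatments were called, in opposite directions. RGS4, CXCR4 and LRRN3 rose with auxin and fell with BRM014, and INSM1, MAB21L1 and SLAIN1 did the reverse. LRRN3, CXCR4 and SLAIN1 were singled out after their values were seen. RGS4, a regulator of G-protein signalling like RGS16, had 9.64 and 5.66 CPM with ethanol and 23.2 and 39.9 with auxin (log2 change 2.07 ± 0.27, adjusted p = 3.26e-08). In parental cells it had 122 and 130 CPM in DMSO and 81.0 and 35.1 with BRM014 (log2 change -1.12). CXCR4, the receptor for CXCL12, had 39.3 and 37.7 CPM with ethanol, 83.7 and 76.0 with auxin, 188 and 185 in parental DMSO and 100.2 and 68.8 with BRM014. LRRN3, a neuronal leucine-rich repeat protein, had 16.5 and 34.0, 61.3 and 54.1, 162 and 177, and 92.8 and 121 in the same order. These 3 genes thus started far lower in the engineered line than in its parent, and the auxin and BRM014 libraries lay between the starting levels. INSM1 had log2 changes of -0.53 with auxin and 0.52 with BRM014, MAB21L1 -0.33 and 0.58, and SLAIN1 -0.55 and 0.56. With ethanol, INSM1 and MAB21L1 started higher than in parental DMSO (log2 difference 0.68 and 0.36, adjusted p = 0.000148 and 0.00307). The difference of SLAIN1 was 0.29 and not called (adjusted p = 0.305). The auxin calls of CXCR4 and INSM1 were lost without any 1 library (adjusted p = 0.0831 to 0.194 and 0.0548 to 0.146), and that of LRRN3 without ethanol replicate 1 (0.131). Those of MAB21L1 and SLAIN1 were lost without ethanol replicate 1 (adjusted p = 0.208 and 0.185), ethanol replicate 2 (0.0861 and 0.136) or auxin replicate 1 (0.395 and 0.485), while RGS4 held throughout.

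The engineered line in ethanol differed from parental IMR-32 in DMSO at 792 genes (6.16%). This comparison uses the same ethanol libraries as the auxin comparison, so only values are set side by side. RGS16 had 0 and 3.66 CPM in parental DMSO, 13.3 and 28.1 with BRM014, 19.3 and 15.7 in the engineered line with ethanol and 77.0 and 100.5 with auxin. DKK1 lay at 387 and 357 CPM in parental DMSO, above its 158 and 162 with ethanol and below its 413 and 502 with auxin. EGFR lay at 6.62 and 6.41 CPM in parental DMSO, near its 4.49 and 6.44 with auxin and below its 27.6 and 39.0 with ethanol. NEUROD1 showed the same order, with 625 and 610 CPM in parental DMSO, 1071 and 1121 with ethanol and 484 and 518 with auxin. ISL1, a factor of the adrenergic core, had 473 and 427 CPM in parental DMSO against 131 and 132 with ethanol and 149 and 164 with auxin. NRP1 was high in both untreated states, with 215 and 228 CPM in parental DMSO and 141 and 108 with ethanol, and low with either agent, at 22.1 and 47.8 with BRM014 and 27.7 and 28.3 with auxin.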

How the data were processed

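New RNA was measured in 18 libraries of 9 groups of 2, of which the 2 auxin and 2 ethanol libraries of SMARCA4-mAID IMR-32 are the subject. Each file deposited by the authors holds raw counts per gene symbol. The submitters' processing notes name HISAT, HTSeq, DESeq2 and hg38, giving neither role nor version. The sources used here do not give the conversion rule, annotation or strand setting, so overlapping and antisense genes (15 of 99 named, such as MYCN with MYCNOS, HAND2 with HAND2-AS1 and ZEB1 with ZEB1-AS1) are uncertain. HTSeq summary lines were left out of library sizes. Reads without a feature made up 46.4% to 51.9% of the total in the 4 libraries.

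A model with a mean for each group was fitted to the 16 labelled libraries (8 residual degrees of freedom) in edgeR 4.0.16 (R 4.3.3), with TMM scaling and the filterByExpr filter, which kept 12853 genes. The biological coefficient of variation was 0.143. Counts of the 2 libraries of a group differed by more than sampling noise, with a chi-square per degree of freedom of 2.62 for ethanol and 2.65 for auxin. Contrasts were auxin minus ethanol, BRM014 minus DMSO in IMR-32, their difference, and ethanol minus parental DMSO. Alternatives used DESeq2 1.42.0, other filters, offsets, libraries and a replicate block. The fit was also run on simulated counts with known changes, set only in genes with many counts. Their spread followed the level of a gene alone. That run cannot give the error rate for genes with few counts or an unusual spread.

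Members, lists and tests were chosen with earlier results of these data known. There were 33 lists, and 3 more (glycolysis, RGS, and proneural and Hand genes) were added after these data were seen. The text names the 15 called genes with the highest and the 15 with the lowest log2 change, given both auxin libraries beyond both ethanol libraries and a mean of at least 50 counts in the higher group, leaving out unnamed, antisense and small RNAs, the 6 smallest p of the difference, 18 fixed genes and up to 4 genes of each list. Some of these genes are not reported here. Same-numbered libraries did not deviate together (correlation 0.0088 over 6446 genes), so they were not treated as pairs. Gene symbols were matched to RefSeq coordinates for 27096 of 28063 genes and to GENCODE transcripts for 25900. Sequences are from RefSeq, GRCh38.p14.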

Additional observations from a re-analysis of the deposited data

How the results depend on the processing

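Of 281 genes called with auxin, 252 to 279 were also called with DESeq2 size factors, no low-count filter, the DESeq2 Wald test, abundance offsets, a replicate block or the 4 engineered-line libraries with or without a block, and 226 or 235 with GC and length offsets. The replicate block gave 300 calls over 16 libraries and 364 over the 4, against 414 in those 4 without it, and over 16 libraries the block added calls of the named genes GATA3, SS18, AHRR and SLC6A2 and lost none. It lost SS18 in the 4 libraries and added MEIS2, MCM7 and PGF to the fit with GC and length offsets. Leaving out 1 library mattered most: 131 to 158 genes were then called with auxin, 59 to 80 higher and 72 to 87 lower. The sign was kept in at least 280 of the 281. The difference from BRM014 was called in 150 to 188 genes, and the engineered line differed from its parent at 372 to 789, with 485 without ethanol replicate 1 and 372 without ethanol replicate 2. In these fits the lone library of a group is assumed to vary like the other groups. Of 81 named genes called, 26 were called in all 13 alternatives, and no named gene that was called changed direction. MYCN was called with abundance offsets (log2 change 0.20, adjusted p = 0.0452) and SMARCA4 with the 4 engineered-line libraries. At 1376718 to 1638317 counts per library, changes in genes with few counts were not detectable unless large.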

Other observations

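RN7SL2, a small RNA of the signal recognition particle that was left out of the named genes, was the 1 gene called higher whose auxin libraries did not both lie above the ethanol libraries. It had 2 and 7 counts with ethanol and 120 and 2 with auxin, so its call (log2 change 3.89, adjusted p = 0.000474) rests on auxin replicate 1.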
